A study of Mus musculus with 50 samples.

Results

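A set of 9 transcription factor genes with roles in epithelial to mesenchymal transition (EMT) was followed across 50 mammary gland tumors: Snai1, Snai2, Zeb1, Zeb2, Twist1, Twist2, Tcf4, Klf8 and Prrx1. They were taken by gene symbol from the 37701 genes of the expression table, so that 9 of 37701 genes were members, and all 9 passed the minimum mean level used for testing (16733 genes did). The questions were how these factors vary between tumors and treatments, and which of them opposed Cdh1, the gene of the epithelial adhesion protein E-cadherin. The tumors came from female p53R270H/+WAPCre mice, in which 1 allele of p53 carries the R270H mutation and Cre is driven by the WAP promoter of mammary epithelium. This genotype was common to all 5 groups, and treatment began at an age of 8 weeks. The 5 groups of 10 tumors differ in what was given by subcutaneous injection on alternate days up to tumor formation, which was insulin, glargine, X10, IGF1 or the vehicle alone. Vehicle tumors are titled Untreated in the sample labels, so that Untreated_174 is a vehicle tumor. IGF1 stands for insulin-like growth factor 1, while glargine and X10 are insulin analogs with altered residues. The doses are not given in the labels. Each tumor was sampled at a volume of 1 cm3, and an interval of 24 h separated dosing from sampling. The authors picked tumors with an EMT-like appearance and a latency close to the median of their treatment group, so they are not a random draw of the tumors that formed.

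In EMT, epithelial cells lose their junctions and polarity and take on the shape and motility of mesenchymal cells. Snail (Snai1), Slug (Snai2) and the ZEB proteins are zinc finger repressors that bind E-box sequences in promoters of epithelial genes, with Cdh1 as their best known target. Twist1 and Twist2 are basic helix-loop-helix proteins that pair with E-proteins such as the product of Tcf4, a different gene from the Wnt effector Tcf7l2. Klf8 is a Krüppel-like zinc finger protein that can also repress Cdh1, and Prrx1 is a homeobox protein of embryonic and fibroblastic mesenchyme.

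The E-box bound by Snail, Slug and ZEB proteins reads CACCTG, or CAGGTG on the other strand. RefSeq promoter windows on GRCm38.p6, from 250 bases before to 50 bases after a start site, were matched by symbol for 6 of the 9 members (Snai1, Zeb2, Twist1, Twist2, Klf8 and Prrx1) and not for Snai2, Zeb1 and Tcf4. Both strands were searched. Of all 32851 promoter windows, 20.2% held this E-box. Among the members, the only window with a match was that of Snai1, with 1 E-box whose first base lies at position -126 from the start site. The Twist1 window, shown for contrast because Twist1 leaned against Cdh1 in these tumors, held neither spelling. A match is a description of the letters and not a bound site. Below, the 250 bases before each start are printed 5′ to 3′ on the plus strand, chr2:167537945-167538194 for Snai1 and chr12:33957421-33957670 for Twist1, with the E-box in capitals.
Snai1: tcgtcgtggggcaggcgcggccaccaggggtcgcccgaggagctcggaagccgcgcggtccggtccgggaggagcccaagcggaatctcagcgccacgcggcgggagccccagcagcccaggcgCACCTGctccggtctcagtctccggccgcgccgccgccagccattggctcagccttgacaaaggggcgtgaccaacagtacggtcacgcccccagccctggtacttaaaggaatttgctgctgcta
Twist1: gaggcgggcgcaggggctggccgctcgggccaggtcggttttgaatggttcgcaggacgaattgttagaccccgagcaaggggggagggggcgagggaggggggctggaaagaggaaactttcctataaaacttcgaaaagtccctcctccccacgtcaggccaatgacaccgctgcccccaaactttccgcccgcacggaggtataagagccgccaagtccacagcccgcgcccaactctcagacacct

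RNA was selected by its poly-A tail and sequenced on the Ion Proton, and the values are RPKM, reads per kilobase of gene length and per M reads. Library size, recovered from the steps between values, was between 26.6 and 51.9 M reads, and none of the 9 factors was related to it (Pearson r between -0.183 and 0.155 over 50 tumors, unadjusted permutation p of at least 0.202). The labelled tissue was checked against marker lists of 8 genes each. Summed epithelial markers ranged from 12.0 to 6608 RPKM, and the basal keratin gene Krt5 was at 0 in at least 1 tumor. Fibroblast markers, led by collagens, were above 0 in every tumor and summed to between 2852 and 32260 RPKM. Leukocyte markers summed to between 181 and 662 RPKM and endothelial markers to between 62 and 204 RPKM. Muscle markers reached 4864 RPKM in a glargine tumor, with medians between 16.3 and 93.3 RPKM in the 5 groups. In bulk tumors of this kind, fewer cells of a type and less RNA per cell cannot be told apart.

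**Figure D1:**
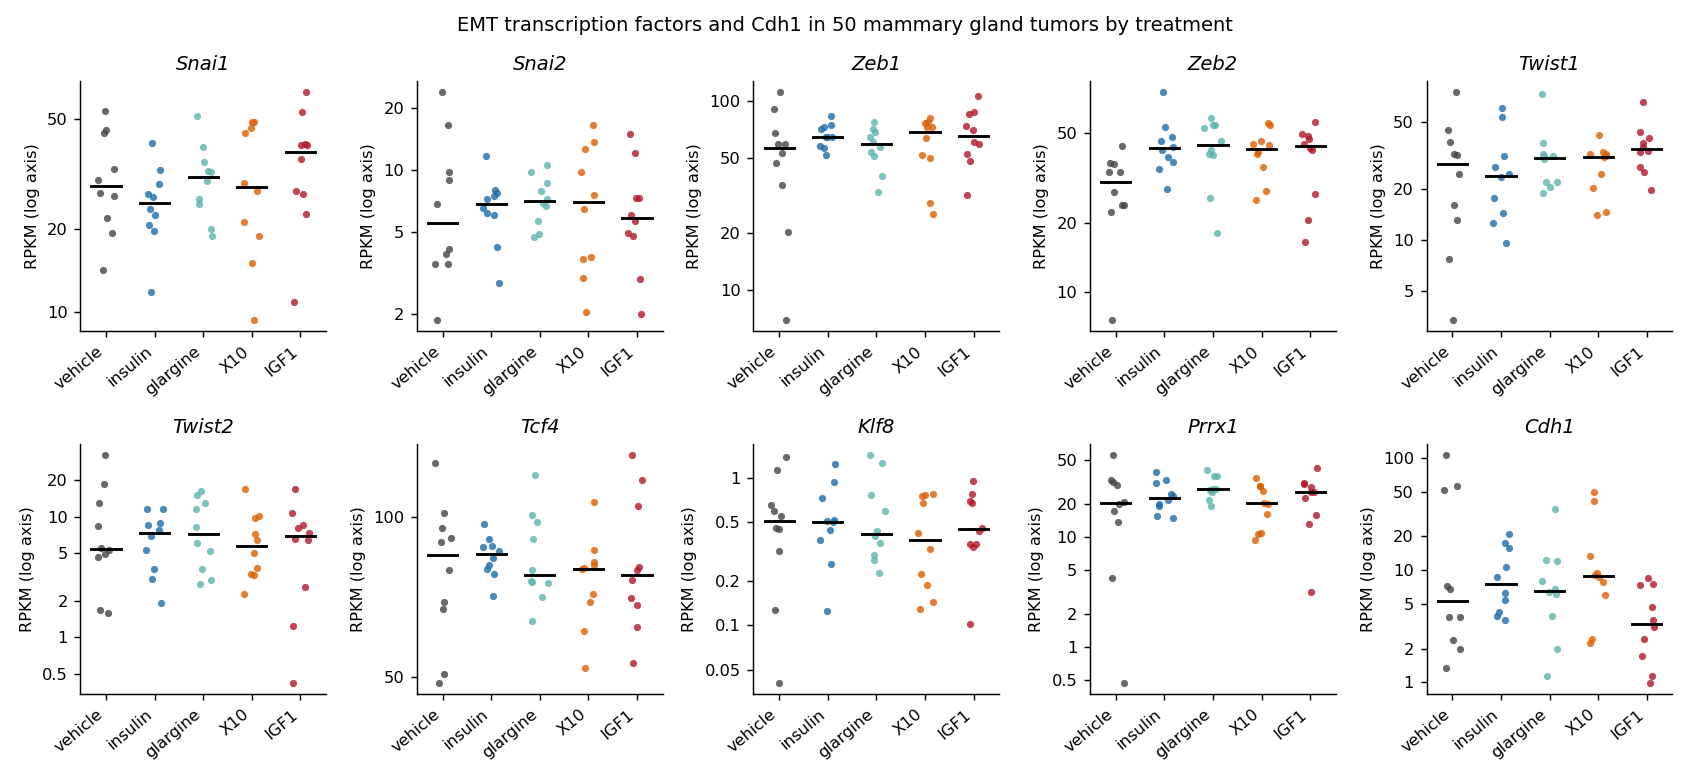
RPKM (log axis) of the 9 factors and Cdh1 in each tumor, with the 5 treatments on the horizontal axis, a point per tumor and a bar at the median of 10 tumors. Zeb2 medians were 30.4 in vehicle and between 42.5 and 44.0 in the other groups. Single vehicle tumors formed the low end of Snai2, Zeb1, Zeb2, Twist1, Tcf4, Klf8 and Prrx1.

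Every factor was detected in every tumor, with Klf8 as the least expressed. Per deposited RPKM, the median level over 50 tumors was 79.96 for Tcf4, 62.1 for Zeb1, 41.5 for Zeb2, 31.3 for Twist1, 28.3 for Snai1, 25.0 for Prrx1, 6.78 for Snai2, 6.49 for Twist2 and 0.452 for Klf8. Neighbours in this order differed beyond the spread of their difference (1 SD over tumors, log2 scale) at 3 places: Zeb1 over Zeb2 by 0.61 ± 0.47 (higher in 44 of 50 tumors), Prrx1 over Snai2 by 1.61 ± 1.07 (46 of 50 tumors) and Twist2 over Klf8 by 2.74 ± 1.22 (49 of 50 tumors). The order of levels depended on the gene length used by the authors. The steps of the values gave a length of 1485 bases for Zeb1 and 1830 bases for Tcf4, while their longest transcripts in GENCODE M21 measure 5801 and 8577 bases. Rescaled to the longest transcript, the medians were 31.0 for Twist1, 28.3 for Snai1, 26.9 for Zeb2, 19.0 for Prrx1, 17.1 for Tcf4, 15.9 for Zeb1, 6.82 for Snai2, 3.42 for Twist2 and 0.419 for Klf8. The medians of Tcf4 and Zeb1, at the top of the deposited order, were then below that of Prrx1, but Prrx1 exceeded Tcf4 in 25 of 50 tumors, so the order of these genes is not resolved. Comparisons of 1 gene between tumors do not depend on this length.

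The factors differed widely in how much they varied. Tcf4 was the most even, with a highest level 2.69 times its lowest, and Snai1 followed with 6.67 times. Zeb2 spanned 9.91 times, Snai2 12.7, Zeb1 16.0, Twist1 22.4, Klf8 34.6, Twist2 76.9 and Prrx1 117.5 times. Each span rests only on the highest and the lowest tumor. By the SD of log2(RPKM + 0.5) over the 50 tumors, Tcf4 was again the most even (0.32), but Twist2 (1.01) stood above Prrx1 (0.97). The low end of Prrx1 was Untreated_161, at 0.472 RPKM, where Twist1 (3.35 RPKM) and Tcf4 (48.7 RPKM) were also at their lowest of the 50 tumors. In this tumor the marker scores, each the mean z-score of a list, were also the lowest of the 50 tumors for fibroblasts (-2.33), leukocytes (-1.81) and adipocytes (-1.16), and the endothelial score was -1.16. For Klf8 the depth was limiting, since its values rest on 8.08 to 248.7 reads per tumor, with a median of 81.6. Twist2 rested on 22.8 to 1924 reads, and the other 7 factors on at least 101 reads in every tumor.

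Against Cdh1, Zeb1 and Tcf4 were the 2 factors that fell with a slope that passed. By Spearman's rho Twist1 was the most inverse (-0.474), before Zeb1 (-0.429) and Tcf4 (-0.403), and no factor passed. The slope of each gene on Cdh1 was fitted with limma on log2(RPKM + 0.5), with treatment as a term, and adjusted with Benjamini-Hochberg over 16732 genes. Zeb1 and Tcf4 passed, 2 of 9 factors, where 1.03% of all genes tested fell and passed. Twist1 and Zeb2 had larger slopes than Tcf4, with larger errors, and did not pass. Of the 9 slopes, 8 were below 0, with a median of -0.109 beside -0.0071 over all genes, and that of Twist2 was above 0. Cdh1 itself ranged from 0.993 to 106.0 RPKM, with a median of 6.56. The largest gap between its values with at least 3 tumors on each side was 0.72 on the log2 scale, with 6 tumors above it. This was under the limit of 1 that had been set, so the tumors were not split there. A gap under that limit does not show that clusters are absent.

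Zeb1, on chromosome 18 (5591860 to 5775467, plus strand, GRCm38), ranged from 6.94 to 110.7 RPKM in the vehicle tumors with a median of 55.9. It lay between 52.0 and 83.5 (median 64.5) in the insulin tumors, 33.0 and 76.8 (58.8) in glargine, 25.1 and 81.4 (68.1) in X10, and 31.8 and 106 (65.2) in IGF1. The groups overlapped, and the insulin tumors were the most even. Zeb1 fell by 0.284 on the log2 scale per log2 unit of Cdh1 (SE 0.054, limma adjusted p = 0.000387). Over the 50 tumors Pearson's r was -0.595 (permutation p = 3e-05, adjusted over all genes 0.00199), and only 0.012% of genes had a lower r. Spearman's rho was -0.429 (permutation p = 0.00199, adjusted p = 0.0890). The 4 tumors with the lowest Zeb1 were all among the 5 tumors highest in Cdh1: Untreated_174 (Zeb1 6.94, Cdh1 106.0 RPKM), Untreated_195 (20.2 and 52.0), X10_105 (25.1 and 49.5) and X10_111 (29.0 and 41.1). The next lowest, IGF1_160, had 31.8 RPKM of Zeb1 with the lowest Cdh1 of all, 0.993 RPKM. Without the 2 tumors farthest from the median Cdh1 (Untreated_174 and Untreated_182), r was -0.499 and the slope -0.227 (SE 0.054, adjusted p = 0.0151). Without the 6 tumors highest in Cdh1, r was -0.149 and the slope -0.087 (SE 0.069, adjusted p = 0.899), so the relation no longer held without those 6 tumors, where 0.012% of all genes fell and passed. Among the other 44 tumors, Cdh1 did not exceed 21.0 RPKM.

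Tcf4, on chromosome 18 (69343356 to 69689079, plus strand), ranged from 48.7 to 127 RPKM in vehicle (median 84.7), 71.0 to 97.1 in insulin (85.1), 63.6 to 120.03 in glargine (77.7), 51.9 to 106.8 in X10 (79.96) and 53.1 to 131 in IGF1 (77.9). All 5 ranges overlapped. It fell by 0.115 on the log2 scale per log2 unit of Cdh1 (SE 0.031, limma adjusted p = 0.0199), with r = -0.471 (permutation p = 0.0007, adjusted p = 0.0198) and rho = -0.403 (permutation p = 0.00388, adjusted p = 0.119). The slopes within the 5 treatments were all below 0, from -0.044 (SE 0.078) in glargine to -0.246 (SE 0.102) in IGF1. Without the 6 tumors highest in Cdh1 the slope was -0.144 (SE 0.052), larger than with them, but its adjusted p was 0.675. In all, the call was lost in 5 of 15 alternative settings. Beside the fit without those 6 tumors, these were the fits without the 2 tumors farthest from the median Cdh1 and with ranks of Cdh1. The call was also lost with another epithelial gene, Epcam, in place of Cdh1. With leukocyte, fibroblast and endothelial marker scores in the fit it was lost as well (slope -0.081, adjusted p = 0.0694). Of the 50 fits that left out 1 tumor it was lost in 2, without Untreated_174 (-0.102, adjusted p = 0.121) and without Untreated_197 (-0.102, 0.0671). Tcf4 moved with fibroblast and endothelial markers, as given below. Their part in the relation was tested only through the fit with marker scores.

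Twist1, on chromosome 12 (33957671 to 33959829, plus strand), ranged from 3.35 to 75.0 RPKM in vehicle (median 28.2), 9.61 to 60.5 in insulin (24.1), 19.0 to 73.5 in glargine (30.7), 14.1 to 42.1 in X10 (31.3) and 19.7 to 65.5 in IGF1 (34.5). Each range lay within or overlapped that of vehicle. Its slope on Cdh1 was -0.220 (SE 0.077, limma adjusted p = 0.0958). By correlation it did pass for r, at -0.434 (permutation p = 0.00169, adjusted p = 0.0362), and narrowly missed for rho, at -0.474 (permutation p = 0.00068, adjusted p = 0.0506). Of these 3 factors, Twist1 had the r that changed least when tumors high in Cdh1 were removed, from -0.434 to -0.382 without the 2 farthest tumors and -0.357 without the 6 highest. Of 15 alternative settings the slope passed in 1, with the treatment term dropped (-0.243, adjusted p = 0.0271). Of 50 fits that left out 1 tumor it passed in 3, without Untreated_161 (-0.229, adjusted p = 0.0271), Untreated_194 (-0.244, 0.0434) or Untreated_195 (-0.260, 0.0489). In the other 47 it did not pass, with an adjusted p of up to 0.204, without Untreated_174. Within the treatments the slope ran from -0.604 (SE 0.266) in insulin to 0.095 (SE 0.249) in IGF1. By Pearson's r, then, 3 of 9 factors were inverse to Cdh1 (Zeb1, Tcf4 and Twist1), where 1.49% of all genes were. By Spearman's rho 0 of 9 passed, where 0.215% of all genes did, and 3 of 9 were negative with an unadjusted permutation p under 0.05, where 6.77% of all genes were.

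**Figure D2:**
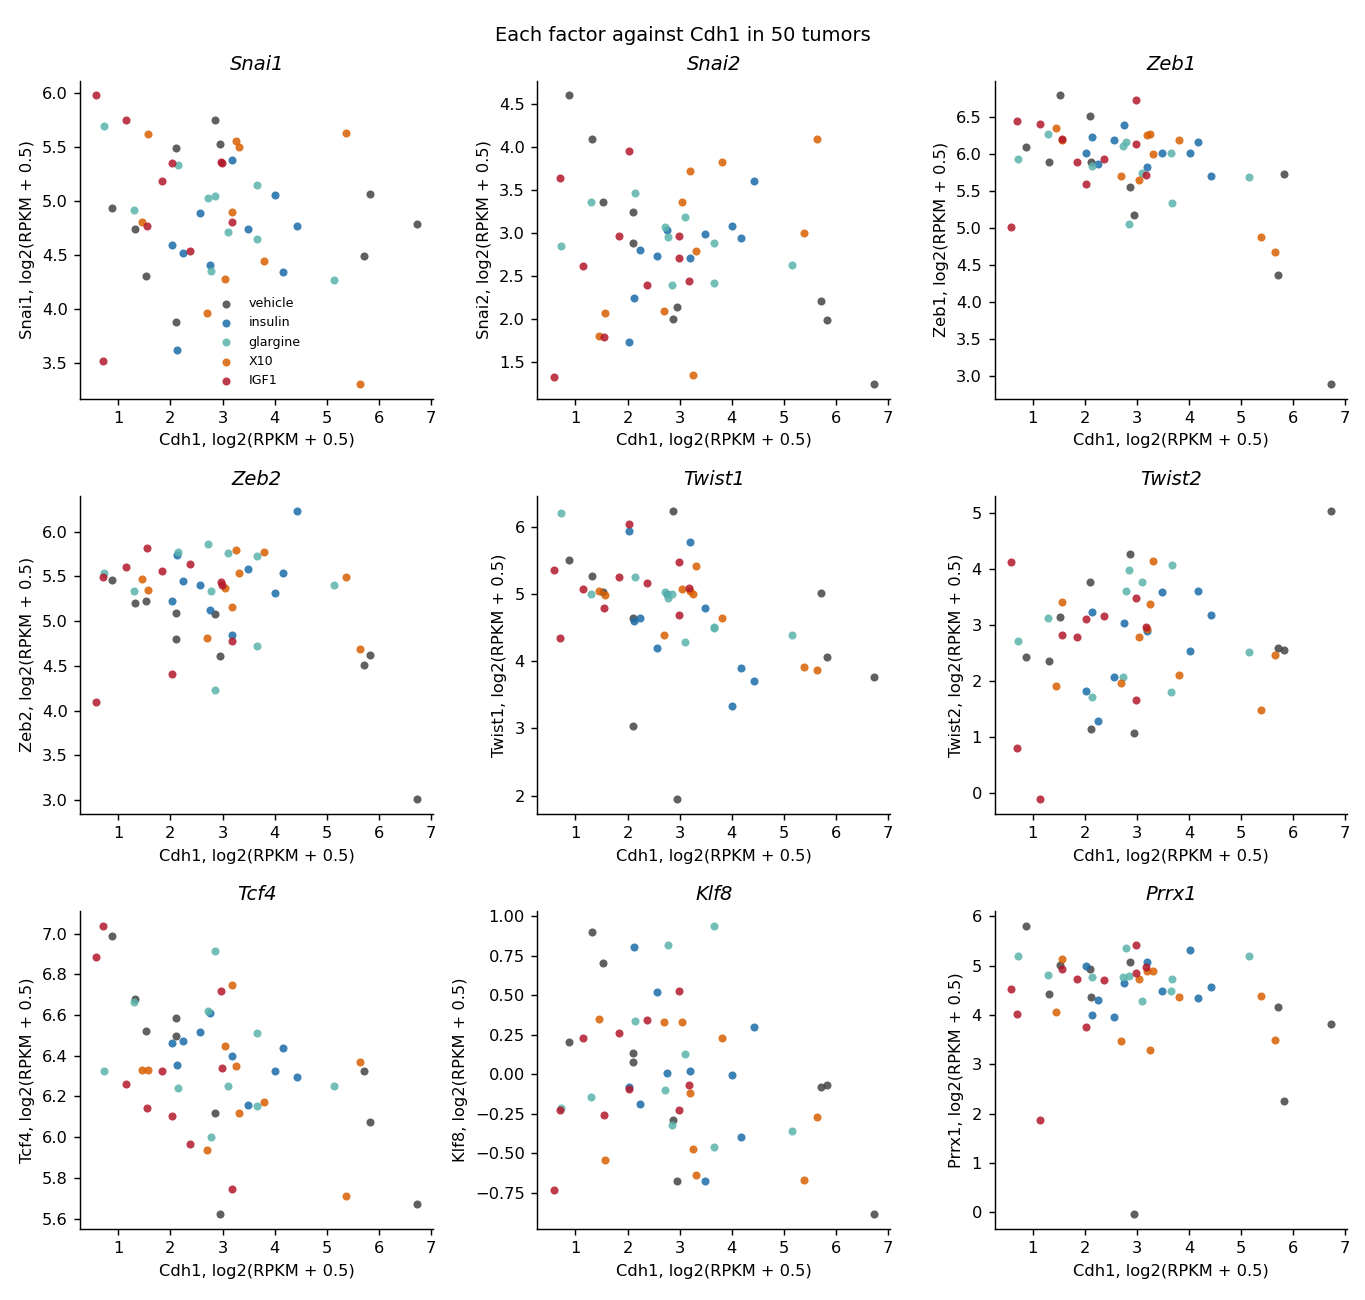
Each factor (vertical axis) against Cdh1 (horizontal axis), both as log2(RPKM + 0.5), with a point per tumor coloured by treatment. The 4 lowest Zeb1 values lie among the 5 tumors highest in Cdh1, at the right end, and r was -0.471 for Tcf4, -0.434 for Twist1, -0.165 for Prrx1 and -0.164 for Snai1.

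The remaining factors did not pass. Zeb2 had a slope of -0.126 (SE 0.052, limma adjusted p = 0.190), which was -0.055 (adjusted p = 0.796) without Untreated_174 and 0.012 without the 6 tumors highest in Cdh1. Klf8 had a slope of -0.095 (SE 0.048, adjusted p = 0.320), and Prrx1, on chromosome 1, one of -0.109 (SE 0.10, adjusted p = 0.647). Snai1 had a slope of -0.050 (SE 0.065, adjusted p = 0.774). The pooled slope of Snai2, -0.084 (SE 0.081, adjusted p = 0.669), averaged slopes of opposite sign within the treatments, which are given below. Snai1 had r = -0.164 with Cdh1, and 24.1% of all genes had a lower r. Twist2 rose with a slope of 0.148 (SE 0.107, adjusted p = 0.534), and its highest value, 32.4 RPKM, was in Untreated_174, the tumor with the highest Cdh1.

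**Figure D3:**
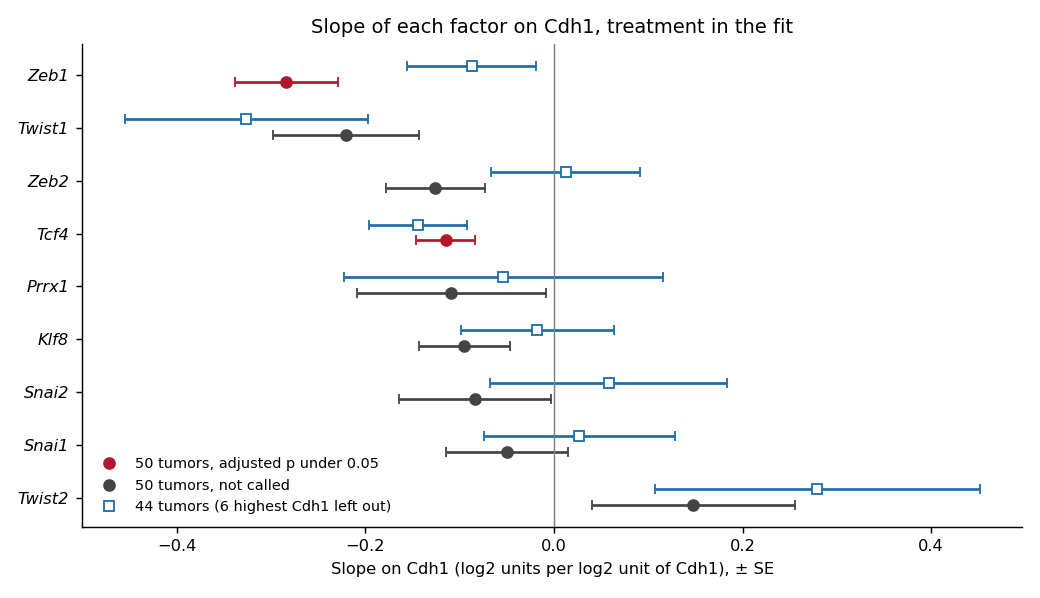
Slope of each factor on Cdh1 in log2 units per log2 unit (horizontal axis, points with SE), from 50 tumors (circles, red where the adjusted p was under 0.05) and from the 44 tumors left when the 6 highest in Cdh1 were removed (squares). Zeb1 moves from -0.284 to -0.087, Twist1 from -0.220 to -0.326 and Tcf4 from -0.115 to -0.144, and none of the 9 slopes passed in the 44 tumors.

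The choice of epithelial measure mattered. Against the epithelial marker score in place of Cdh1, 4 of 9 factors were inverse by Pearson's r (Zeb1, Zeb2, Tcf4 and Klf8), where 7.89% of all genes were. Zeb1 had r = -0.769 (permutation p = 1e-05, the smallest that the permutations can give, adjusted p = 0.000497) and rho = -0.669 (permutation p = 2e-05, adjusted p = 0.00151), and 0% of the 16733 genes had a lower r. It kept r = -0.660 without the 2 farthest tumors and -0.483 without the 6 tumors highest in the score. For Tcf4 r was -0.510 (permutation p = 0.00015, adjusted p = 0.00346) and rho -0.459 (permutation p = 0.00094, adjusted p = 0.0245), with r = -0.483 without the 2 farthest tumors and -0.361 without the 6 highest. Zeb2 had r = -0.489 (permutation p = 0.00059, adjusted p = 0.00930) but rho = -0.249 (permutation p = 0.0816, adjusted p = 0.310), and r = -0.274 without the 2 farthest tumors and -0.094 without the 6 highest. Klf8 had r = -0.390 (permutation p = 0.00502, adjusted p = 0.0403) and rho = -0.345 (permutation p = 0.0143, adjusted p = 0.123), with r = -0.297 without the 2 farthest and -0.196 without the 6 highest. Twist1 did not pass against this score (r = -0.344, permutation p = 0.0153, adjusted p = 0.0834). With Epcam, the gene of an epithelial adhesion molecule, in place of Cdh1, 1 of 9 factors was inverse by Pearson's r, where 3.6% of all genes were. This was Zeb1 (r = -0.652, permutation p = 1e-05, adjusted p = 0.000606, and r = -0.614 without the 2 farthest tumors), while the adjusted permutation p was 0.0594 for Zeb2, 0.0762 for Tcf4, 0.127 for Twist1 and 0.134 for Klf8. The score holds Epcam, keratins and claudins and not Cdh1 itself.

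Several factors moved with the fibroblast, leukocyte or endothelial marker scores. Whether the RNA of these markers came from the EMT-like tumor cells or from other cells was not tested. With the fibroblast score, 3 of 9 rose (Prrx1, Tcf4 and Snai2), where 2.7% of all genes did. Prrx1 had r = 0.713 (permutation p = 1e-05, adjusted p = 0.00119), rho = 0.375 (permutation p = 0.00729, adjusted p = 0.160) and r = 0.490 without the 2 farthest tumors. For Tcf4 r was 0.548 (permutation p = 5e-05, adjusted p = 0.00410) and rho 0.550 (permutation p = 8e-05, adjusted p = 0.00774), with r = 0.460 without the 2 farthest tumors. Snai2 had r = 0.482 (permutation p = 0.00039, adjusted p = 0.0179), rho = 0.546 (permutation p = 7e-05, adjusted p = 0.00706) and r = 0.469 without them. Tcf4 also rose with the endothelial score (r = 0.524, permutation p = 9e-05, adjusted p = 0.0160; rho = 0.507, permutation p = 0.00025, adjusted p = 0.0423), where 0.956% of all genes did, with r = 0.472 without the 2 farthest tumors. Zeb2 rose with the leukocyte score (r = 0.471, permutation p = 0.00069, adjusted p = 0.00702, and rho = 0.458, permutation p = 0.00097, adjusted p = 0.0111), where 14.3% of all genes did, with r = 0.465 without the 2 farthest. Snai1 fell with it (r = -0.450, permutation p = 0.00116, adjusted p = 0.0106, and rho = -0.407, permutation p = 0.00364, adjusted p = 0.0305), where 2.8% of all genes did, with r = -0.459 without the 2 farthest. Zeb1 and Twist1 passed with none of the fibroblast, leukocyte and endothelial scores. With all 3 of these scores in the fit, the slope on Cdh1 was -0.269 for Zeb1 (adjusted p = 0.00149) and -0.170 for Twist1 (adjusted p = 0.256), and that of Prrx1 turned from -0.109 to 0.026.

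Of the 36 pairs of factors, 6 passed by Pearson's r when p-values were adjusted over all genes correlated with at least 1 of the pair, and 3 of these passed for both. Many genes passed against these members: 21.4% rose with Zeb1, 22.4% rose and 16.5% fell with Zeb2, and 14% rose with Klf8. The closest pair was that of the ZEB genes, with r = 0.708 (permutation p = 1e-05, adjusted over all genes 0.000275) and rho = 0.449 (permutation p = 0.00124, adjusted p = 0.0207). Zeb2 was closer to Zeb1 than 99.5% of genes, and r was 0.493 without the 2 tumors farthest from the median Zeb1. Twist1 and Prrx1 had r = 0.501, closer to Twist1 than 99.8% of genes, with an adjusted p of 0.133 (unadjusted permutation p = 0.00098). The adjusted permutation p was 0.0538 over genes related to Prrx1, and r was 0.308 without the 2 tumors farthest from the median Twist1. Klf8 rose with Zeb1 (r = 0.475, permutation p = 0.00036, adjusted p = 0.00285, and rho = 0.351, permutation p = 0.0126, adjusted p = 0.0748), with r = 0.433 without the 2 farthest tumors. Klf8 also rose with Zeb2 (r = 0.391, permutation p = 0.00457, adjusted p = 0.0155, and rho = 0.252, permutation p = 0.0770, adjusted p = 0.191), with r = 0.220 without the 2 farthest. For Tcf4 with Zeb1, r was 0.382 (permutation p = 0.00653, adjusted p = 0.0244) and rho 0.396 (permutation p = 0.00471, adjusted p = 0.0426), with r = 0.277 without the 2 farthest, but the adjusted permutation p was 0.101 over genes related to Tcf4. The other pairs that passed against 1 member were Snai2 with Klf8 (r = 0.362, adjusted permutation p = 0.0495 and 0.0998) and Zeb2 with Twist2 (r = -0.337, adjusted permutation p = 0.0447 and 0.188). Snai1 and Snai2 had r = -0.247 (permutation p = 0.0832), and Twist1 and Twist2 r = 0.109 (permutation p = 0.450).

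**Figure D4:**
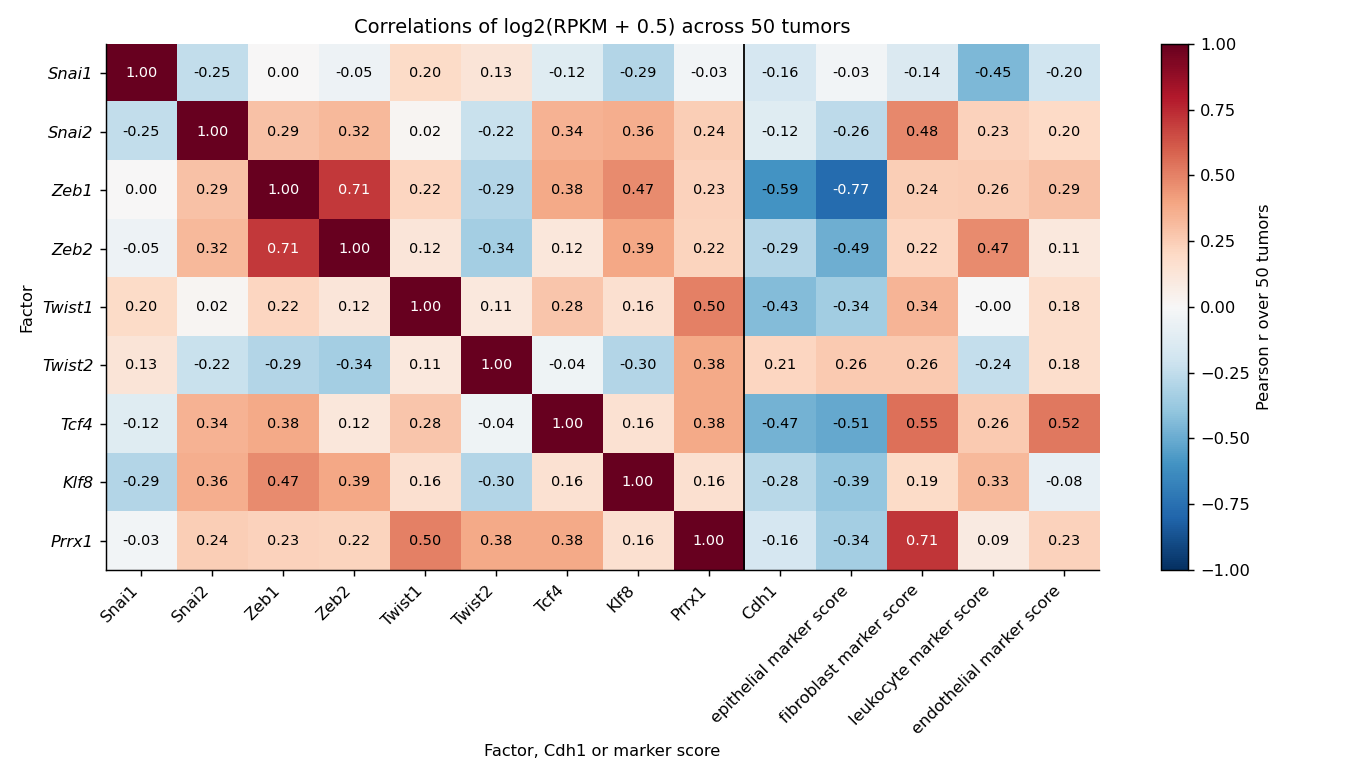
Pearson's r over 50 tumors between each factor (rows) and the other factors, Cdh1 and 4 cell type marker scores (columns), with red for positive and blue for negative values. The Zeb1 and Zeb2 pair (0.71), Prrx1 with the fibroblast score (0.71) and Zeb1 with the epithelial score (-0.77) stand out.

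The genes whose levels were most like each factor, by Pearson's r over the 50 tumors, gave a further description. For Zeb1 they were Sec24d (0.838), Gnb4 (0.834) and Armcx1 (0.810), and for Zeb2 Myo5a (0.868), Rps6ka3 (0.848) and Mef2a (0.846). Prrx1 was closest to Csgalnact1 (0.744), Clmp (0.734) and Lum (0.699), the last a collagen-binding proteoglycan gene that is also 1 of the fibroblast markers. For Snai1 they were Stac2 (0.730), Ext1 (0.679) and St13 (0.662), and for Snai2 Apol10b (0.695), Fam109b (0.690) and Rnd3 (0.686). Tcf4 was closest to Grin2d (0.679), Lhpp (0.675) and Dock6 (0.655), and Klf8 to Magee1 (0.749), Mum1l1 (0.722) and Gprasp1 (0.721). The lowest of these values were those of Twist1, with Etv1 (0.626), Sms (0.573) and Ppp2r3c (0.554), and Twist2, with Uaca (0.629), the agouti gene a (0.623) and Ripk3 (0.614).

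Between treatments, 0 of the 9 factors passed the test in any comparison. Each ligand was compared with vehicle by limma in 1 fit over the 50 tumors. For insulin and for glargine 0 of 9 factors passed, where 0% of the 16733 genes did. For X10 0 of 9 passed, where 0.0657% of genes did, and for IGF1 0 of 9, where 0.00598% did. X10 and IGF1 tumors together against the other 30 tumors gave 0 of 9 (0.155% of genes), and a test of any difference between the 5 treatments 0 of 9 (0.102% of genes). At an unadjusted p under 0.05 the counts were 1, 2, 1, 1, 0 and 1 of the 9 factors in the same order, and limma voom on the recovered reads also called 0 in each. Over all genes tested, between 6.23% (glargine) and 13.1% (any difference) were under this unadjusted threshold. The 4 comparisons with vehicle share the same 10 vehicle tumors.

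Zeb2, on chromosome 2 (44983632 to 45117395, minus strand), came closest to a treatment difference. It ranged from 7.56 to 43.5 RPKM in vehicle (median 30.4), 28.2 to 74.9 in insulin (42.6), 18.2 to 57.7 in glargine (44.0), 25.4 to 55.2 in X10 (42.5) and 16.7 to 55.8 in IGF1 (43.7). The ranges overlapped, and 9 of 10 insulin, 8 of 10 glargine, 8 of 10 X10 and 7 of 10 IGF1 tumors lay above the vehicle mean of 28.9 RPKM. On the log2 scale the mean was 4.76 ± 0.69 (SD, n = 10) in vehicle, 5.45 ± 0.38 in insulin, 5.37 ± 0.52 in glargine, 5.35 ± 0.37 in X10 and 5.22 ± 0.58 in IGF1. The log2 difference from vehicle was 0.68 for insulin (SE 0.23, limma unadjusted p = 0.00432, adjusted p = 0.304), 0.61 for glargine (unadjusted p = 0.0106, adjusted p = 0.789), 0.58 for X10 (0.0138 and 0.336) and 0.46 for IGF1 (0.0489 and 0.563). Untreated_174 weighed on these values, and without it the differences were 0.49, 0.41, 0.39 and 0.27. The leukocyte markers that moved with Zeb2 summed to 181 to 537 RPKM in vehicle (median 250.2), 222 to 644 in insulin (351), 247 to 661 in glargine (332), 196 to 409 in X10 (317) and 210 to 662 in IGF1 (340). With the marker scores in the fit the insulin difference was 0.46 (adjusted p = 0.661).

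The other factors differed less from vehicle relative to their spread. Zeb1 was 0.55 higher in insulin (SE 0.28, limma adjusted p = 0.462) and 0.52 higher in IGF1 (adjusted p = 0.628) on the log2 scale. For Twist1 the IGF1 difference was 0.68 (SE 0.34, adjusted p = 0.574). Prrx1 ranged from 0.472 to 55.5 RPKM in vehicle and from 18.9 to 40.5 in glargine, a log2 difference of 0.86 (SE 0.42, unadjusted p = 0.0450, adjusted p = 0.789). Snai1 had its highest median in IGF1 (38.2 RPKM, range 10.9 to 62.6) and its lowest in insulin (25.0 RPKM, range 11.8 to 41.2), with log2 differences from vehicle of 0.16 (SE 0.27) and -0.27 (SE 0.27). For Snai2 the medians lay between 5.51 and 7.07 RPKM, for Twist2 between 5.42 and 7.28, for Tcf4 between 77.7 and 85.1, and for Klf8 between 0.376 and 0.505. X10 and IGF1 tumors together differed from the others by -0.27 (Twist2, adjusted p = 0.837) to 0.28 (Twist1, adjusted p = 0.731) on the log2 scale, and the test of any difference gave F between 0.13 (Snai2, adjusted p = 0.987) and 2.86 (Zeb2, adjusted p = 0.347). Cdh1 had its lowest median in IGF1 (3.33 RPKM, range 0.993 to 8.59). The medians were 5.30 in vehicle, 7.45 in insulin, 6.56 in glargine and 8.85 in X10. Cdh1 reached 106.0 in vehicle, 21.0 in insulin, 35.0 in glargine and 49.5 in X10. Its log2 difference from vehicle was -1.26 in IGF1 (SE 0.60, limma adjusted p = 0.537), and between -0.39 and 0.13 in the other 3 groups (adjusted p of at least 0.943). With Cdh1 as a covariate 0 of 9 factors passed in any of these comparisons.

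The relation with Cdh1 differed between treatments for 1 of the 9 factors, Snai2, where it did so for 0.263% of all genes. Snai2, which encodes Slug and lies on chromosome 16 (14705852 to 14709385, plus strand), ranged from 1.87 to 23.8 RPKM in vehicle (median 5.51), 2.82 to 11.7 in insulin (6.85), 4.75 to 10.6 in glargine (7.07), 2.05 to 16.6 in X10 (6.99) and 2.01 to 15.0 in IGF1 (5.85). Its slope on Cdh1 was -0.420 (SE 0.094) in vehicle, 0.449 (SE 0.223) in insulin, -0.141 (SE 0.159) in glargine, 0.433 (SE 0.145) in X10 and 0.129 (SE 0.209) in IGF1 (limma F-test of the interaction, F = 8.08, adjusted p = 0.0366). In vehicle the tumor with the lowest Cdh1 (Untreated_197, 1.33 RPKM) had the highest Snai2, 23.8 RPKM, and the one with the highest Cdh1 (Untreated_174) the lowest, 1.87 RPKM. In insulin the order was opposite, with 2.82 RPKM of Snai2 in insulin_37, lowest in Cdh1 (3.56 RPKM), and 11.7 RPKM in insulin_21, highest in Cdh1 (21.0 RPKM). The call stood close to its threshold. It was lost in 15 of the 50 fits that left out 1 tumor (Untreated_162, Untreated_174, Untreated_189, Untreated_197, insulin_14, insulin_15, insulin_21, insulin_37, glargine_73, X10_105, X10_107, IGF1_135, IGF1_147, IGF1_158 and IGF1_160), with adjusted p between 0.0505 and 0.0984, and with the marker scores in the fit (adjusted p = 0.0864). Of those 15 fits, 4 had an F above the 8.08 of all 50 tumors and 11 a lower one, with a range of 6.26 to 9.64. Zeb1 had F = 3.45 (adjusted p = 0.198), with slopes from -0.430 (SE 0.073) in vehicle to 0.108 (SE 0.161) in IGF1, and passed only without Untreated_182 (adjusted p = 0.0320). For the other 7 factors F lay between 0.83 (Twist2, adjusted p = 0.693) and 2.22 (Zeb2, adjusted p = 0.330).

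**Figure D5:**
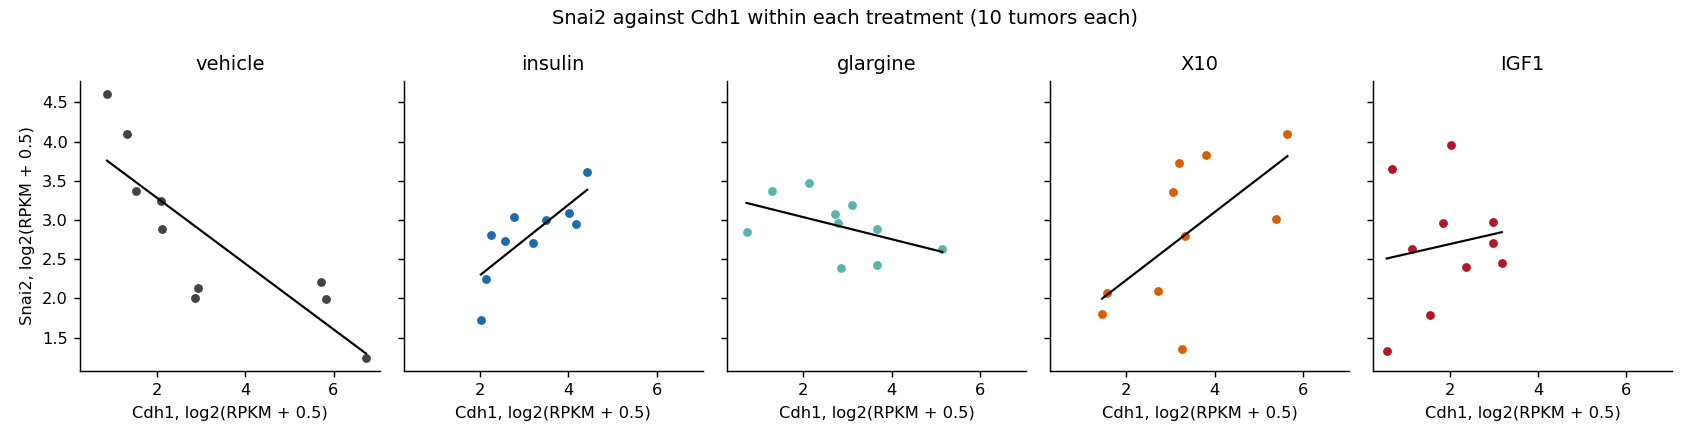
Snai2 (vertical axis) against Cdh1 (horizontal axis), both as log2(RPKM + 0.5), in a panel for each treatment with 10 tumors and the fitted line. The line falls in vehicle (-0.420) and rises in insulin (0.449) and X10 (0.433).

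The partners, regulators and targets of these factors were read from a list of 62 genes, of which 58 were tested against Cdh1. All 11 tested epithelial targets rose with Cdh1, and 3 of them with the smallest adjusted p were Epcam (slope 1.19, SE 0.10, limma adjusted p = 2.38e-11), Marveld2 (0.50, SE 0.05, adjusted p = 1.07e-08) and Ocln (0.55, SE 0.06, adjusted p = 1.08e-08), genes of an adhesion molecule and of tight junction proteins. Of 6 tested factors that oppose EMT, such as Grhl and Esrp genes, 5 rose. Over all genes tested, 3.41% rose with Cdh1 and passed, and 1.03% fell and passed. Among 10 mesenchymal targets 1 fell, Vim, which encodes the filament protein vimentin and ranged from 1094 to 6102 RPKM (slope -0.19, SE 0.04, adjusted p = 0.00264). Of 8 TGF-beta ligands, receptors and SMADs, which act upstream of Snai1, Snai2 and the ZEB genes, 1 fell, Tgfbr2, the type II receptor (slope -0.22, SE 0.06, adjusted p = 0.0148), and 1 rose, Tgfb1, the ligand gene (slope 0.13, SE 0.03, adjusted p = 0.00981), which is named after its value was seen. None of 9 corepressors and chromatin enzymes, 6 E-protein partners and Id inhibitors, and 8 kinases and ubiquitin ligases passed (0, 2 and 1 at an unadjusted p under 0.05, where 16.5% of all genes were). In the treatment comparisons 1 of 59 tested list genes passed, in X10 against vehicle (where 0.0657% of all genes did). This was Id3, an inhibitor that pairs with E-proteins such as that of Tcf4. It was lower in X10 than in vehicle by a log2 difference of -1.42 (SE 0.27, adjusted p = 0.0215), and ranged from 42.4 to 351 RPKM over the 50 tumors. Of the 12 epithelial targets, Cdh1 included, 0 passed by limma in any treatment comparison. In IGF1 all 12 had a mean log2 difference from vehicle below 0 (median -1.33, 10 at an unadjusted p under 0.05, where 8.84% of all genes were). The same held in insulin (median -1.06, 6 under this p, where 11.1% of all genes were). In glargine and X10, 11 of 12 were below 0 (medians -0.40 and -0.31, with 1 and 0 under this p, where 6.23% and 11% of all genes were). Over all genes, 46.6% were below 0 in IGF1, 45.5% in insulin, 45.9% in glargine and 55.6% in X10. These comparisons share the same vehicle tumors, with Untreated_174, Untreated_182 and Untreated_195 among the 6 tumors highest in Cdh1. The insulin median of Cdh1 itself was above that of vehicle (7.45 and 5.30 RPKM). The miR-200 host entries Mir200a and Mir429, whose products repress the ZEB genes, were listed at 0 in all 50 tumors, and Mir200b, Mir200c and Mir141 were above 0 in 3, 2 and 7 tumors, in libraries selected for poly-A RNA.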

How the data were processed

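RNA of 50 tumors, 10 per treatment, was analysed from 1 table. The authors selected poly-A RNA, mapped reads to GRCm38 with TopHat2 2.0.10 and Bowtie2, assigned them to genes by HTSeq 0.6.1 under default options, and deposited RPKM values. DESeq2 1.2.10, which the submitters' notes name, was not used here. For 9635 genes all values were multiples of a step within the rounding of the last decimal, which gave the gene length and reads scaled to a library of 100.0 M. Library size was then taken from values of at most 80 scaled reads in genes of low mean, of which at least 97.3% per tumor equalled a whole read after rounding. RPKM values are not counts, so limma 3.58.1 (R 4.3.3) was fitted on log2(RPKM + 0.5) to genes whose RPKM averaged 0.5 or more, with an intensity trend and Benjamini-Hochberg adjustment over all genes tested, and called at an adjusted p under 0.05. Fold changes on this scale understate those of low genes. Correlations used 100000 two-sided permutations (Python 3.11.15, numpy 2.4.6). The labels do not say whether tumors of a group came from separate mice, so p-values measure the spread between tumors. Tumors are named by their sample titles, 1 of which is spelled IFG1 and was taken as IGF1.

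The members, the gene lists and the tests were chosen with earlier results of these data known, and 6 of the 9 factors were in the EMT gene set that the study clustered in these tumors. By rule the 9 members and Cdh1 are described in each comparison (by count and range where none passed), with up to 3 list genes per direction by smallest adjusted p and the 3 genes of highest r per member. Scripts were tested on simulated data. Alternatives were other pseudocounts, filters, scalings and covariates, other epithelial measures, and fewer tumors; voom for the relation with Cdh1, Cdh1 as a covariate and leaving out each tumor were added after seeing the data.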

Additional observations from a re-analysis of the deposited data

Results flagged for a closer look

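Of 50 sets of 10 tumors (9 factors and Cdh1 in 5 treatments), 3 held a tumor far from the others of its group, by Dixon's criterion for 10 values on the log2 scale. Chance gives such a tumor in about 1 of 20 sets. Zeb2 was 7.56 RPKM in Untreated_174, where the other vehicle tumors lay between 22.4 and 43.5 RPKM. Twist1 was 73.5 RPKM in glargine_73, above 19.0 to 37.5 RPKM in the others. Prrx1 was 3.17 RPKM in the IGF1 tumor titled IFG1_132, below 13.1 to 42.0 RPKM, and the fibroblast score of that tumor was -1.35, also at the low end of the 50 tumors.

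The slope of Snai2 on Cdh1 differed between treatments by the limma interaction test (adjusted p = 0.0366), with opposite signs in vehicle (-0.420) and in insulin (0.449) and X10 (0.433).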

How the results depend on the processing

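No paired analysis was possible because the groups share no replicate numbers. The count of factors inverse to Cdh1, 2 in the reported fit, was 1 with marker scores (Zeb1, where 0.807% of all genes fell), 1 without the 2 tumors farthest from the median Cdh1 (0.0418%), 0 without the 6 highest (0.012%), 1 with ranks of Cdh1 (0.293%), 3 with no treatment term (Twist1 added, 1.55%) and 4 with the epithelial score (6.83%), and between 1 and 3 when each tumor was left out. With Epcam it was 2 (2.93%), but Tcf4 no longer passed (adjusted p = 0.0859) and Zeb2 did (0.0494). The count for the interaction, 1, was 0 with marker scores, without the 2 or the 6 tumors, with Epcam or with the epithelial score, and between 0 and 2 when each tumor was left out. The causes were not tested. Counts of factors differing between treatments remained 0 in every alternative.

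Of 486 treatment differences refitted for the 9 factors, 0 passed and 24 changed sign, all from values that had not passed. With a pseudocount of 0.1 this was Klf8 in IGF1 (0.028), and with 1 Snai2 in insulin (-0.0062). Quantile normalization turned Snai2 (-0.044) and Klf8 (-0.039) in insulin, Klf8 in glargine (-0.034) and IGF1 (0.016), and Tcf4 in X10 (0.0061), as did upper quartile scaling (0.0041). Marker scores turned Snai1 (0.00042), Snai2 (-0.32), Tcf4 (-0.062) and Klf8 (-0.13) in insulin, Snai2 (-0.13), Tcf4 (-0.042) and Klf8 (-0.043) in glargine, Snai1 (0.046) and Snai2 (-0.074) in X10, and Snai2 (0.044) and Prrx1 (0.14) for X10 and IGF1 together. Library size turned Twist2 in glargine (-0.0081) and Tcf4 in X10 (0.012), Cdh1 as a covariate Snai1 in glargine (-0.0030) and Tcf4 in IGF1 (-0.10), and voom Klf8 in IGF1 (0.15). Slopes on Cdh1 that had not passed changed sign for Prrx1 with marker scores (0.026), for Snai2 without the 2 tumors (0.033), and without the 6 tumors for Snai1 (0.027), Snai2 (0.058) and Zeb2 (0.012). Depth limits Klf8 most, at a median of 81.6 reads.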
